A study of Homo sapiens with 42 samples.

Results

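The genes described here encode the kinase CDK7, its partners in the CDK-activating kinase (CAK), and subunits of the general transcription factor TFIIH, to which CAK belongs. They were chosen by symbol: CDK7, CCNH, MNAT1, ERCC2, ERCC3, GTF2H1, GTF2H3, GTF2H4 and GTF2H5. All 9 were present among the 26228 genes of the deposited expression table, and all 9 passed the filter on low values (1 FPKM or more in 3 libraries or more) that left 12816 genes for testing.

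The study measured polyadenylated RNA in HAP1 cells, a near-haploid human line derived from a chronic myelogenous leukemia, after covalent inhibition of transcriptional kinases. Of the 42 libraries, 21 came from cells carrying CDK7 C312S and 21 from cells labelled wild type (WT). Each line was given YKL at 500 nM, YKL at 2 µM, THZ531, THZ1, a combination labelled 500 nM, a combination labelled 2 µM, or the solvent DMSO, with 3 libraries per group and 24 h of exposure. YKL is the study's covalent CDK7 inhibitor, THZ1 is a covalent inhibitor of CDK7 that also acts on CDK12 and CDK13, and THZ531 is a covalent inhibitor of CDK12 and CDK13. What a combination contained is not spelled out by its treatment label; the matching column names carry the codes of both THZ531 and YKL. The doses of THZ531 and THZ1 are not stated in the labels, so these compounds are set side by side with YKL and not ranked against it. Whether either line is 1 clone is not stated, so a difference between the lines may be one between clones. Nor is it stated that replicate libraries were grown as separate cultures, so the p-values measure the spread among libraries, and this may be technical.

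TFIIH opens promoter DNA for RNA polymerase II and also opens damaged DNA in nucleotide excision repair. Its CAK module, formed by the kinase CDK7, cyclin H (CCNH) and the assembly factor MAT1 (MNAT1), phosphorylates the polymerase tail and the activation loops of the cell-cycle CDKs. ERCC2 (XPD) is the helicase that anchors CAK to the core, ERCC3 (XPB) is the translocase that opens promoters, and GTF2H1 (p62), GTF2H3 (p34), GTF2H4 (p52) and GTF2H5 (p8) are structural or regulatory core subunits. The CDK7 cysteine named in C312S is the residue to which YKL and THZ1 attach, and in C312S cells a serine stands in its place.

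The codon for that cysteine is shown because it is the labelled difference between the lines. In transcript CDK7-201 (GENCODE v29, GRCh38) this codon, of 346 in all, lies in exon 11 of 12, on the plus strand at chr5:69276612-69276614. The reference coding sequence around it is given 5′ to 3′ with 30 bases on each side and the cysteine codon in capitals. The base change of the C312S allele was not analysed here, since FPKM values do not show it.
CDK7 cysteine codon: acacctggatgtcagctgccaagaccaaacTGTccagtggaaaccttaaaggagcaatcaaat

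Promoters are shown for CDK7 and MNAT1, whose levels followed each other most closely over the groups, for ERCC2, which moved against them, and for GTF2H3, which had the widest range. Each is the 250 bases before the annotated start (RefSeq, GRCh38.p14), read 5′ to 3′ on the gene's strand, and all 9 members matched an entry. CDK7 is on the plus strand (chr5:69234636-69234885), MNAT1 on the plus strand (chr14:60734511-60734760), ERCC2 on the minus strand (chr19:45370574-45370823) and GTF2H3 on the plus strand (chr12:123633579-123633828). Capitals mark matches on either strand to the E-box CACGTG, the ETS-type motif ACTTCCG, the CCAAT box and the TATA box TATAAA, none of which overlapped another in these sequences.
CDK7 promoter: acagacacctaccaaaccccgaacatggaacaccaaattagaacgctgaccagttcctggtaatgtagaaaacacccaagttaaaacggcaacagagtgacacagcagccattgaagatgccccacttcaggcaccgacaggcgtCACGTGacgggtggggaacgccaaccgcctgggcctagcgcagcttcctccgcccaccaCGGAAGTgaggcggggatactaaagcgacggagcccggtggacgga
MNAT1 promoter: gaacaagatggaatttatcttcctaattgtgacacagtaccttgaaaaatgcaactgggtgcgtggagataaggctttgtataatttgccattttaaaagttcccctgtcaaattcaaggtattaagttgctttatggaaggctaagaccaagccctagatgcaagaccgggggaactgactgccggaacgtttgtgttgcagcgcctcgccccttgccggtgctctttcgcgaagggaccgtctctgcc
ERCC2 promoter: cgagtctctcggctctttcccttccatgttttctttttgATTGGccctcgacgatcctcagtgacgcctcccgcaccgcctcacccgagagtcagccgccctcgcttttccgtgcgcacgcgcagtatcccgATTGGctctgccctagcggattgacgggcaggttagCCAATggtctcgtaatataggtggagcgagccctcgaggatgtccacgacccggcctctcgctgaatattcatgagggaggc
GTF2H3 promoter: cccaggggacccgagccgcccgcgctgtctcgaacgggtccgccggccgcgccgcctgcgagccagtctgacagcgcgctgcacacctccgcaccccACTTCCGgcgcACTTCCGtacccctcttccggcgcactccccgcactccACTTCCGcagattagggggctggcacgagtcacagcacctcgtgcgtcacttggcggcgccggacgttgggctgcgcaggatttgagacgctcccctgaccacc

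The table lists 2 starts for CDK7, and the printed window is that of the downstream one. It held 1 E-box and 1 ETS-type motif, while the window of the other CDK7 start (chr5:69234545-69234794) held 1 E-box and 0 ETS-type motifs. The MNAT1 window held none of the 4 motifs, the ERCC2 window held 3 CCAAT boxes, and the GTF2H3 window held 3 ETS-type motifs. Among all 35116 promoters of the same length, 6.34% held the E-box, 5.69% the ETS-type motif, 32% the CCAAT box and 10.7% the TATA box. As the MNAT1 window held none of the 4, it could share no motif with that of CDK7, and nothing is read from this.

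Certain libraries stood apart. The summed FPKM per library averaged 852300 in C312S THZ1 and 794400 in C312S DMSO, while the remaining C312S groups had 556800 to 591200 and the WT groups 455900 to 628300. No label separates those libraries by batch, so treatment and any batch cannot be told apart for them. The level of the ERCC spike-in RNAs over the gene level was higher by 2.44 on the log2 scale in WT THZ1 than in WT DMSO, and higher by 1.37 in C312S DMSO than in WT DMSO. With 3 libraries against 3, the exact permutation p of each was 0.1 (two-sided), the smallest the design allows, and 0.118 after adjustment over 13 comparisons. Of 8 blood markers, HBG1 was listed at 0 in every library, PTPRC, SPI1, GATA1, CD34 and ITGAM stayed below 1 FPKM in every library, CD33 passed 1 FPKM in 3 libraries, and KIT, at 1.00 to 1.47 FPKM in the group means, passed it in 35. The 8 summed to 1.16 to 2.44 FPKM in C312S libraries and to 1.52 to 2.65 FPKM in WT libraries. Of the epithelial markers, EPCAM and CDH1 were at most 0.0319 FPKM and KRT8 at most 3.07 FPKM in the group means, while KRT18 was at 25.3 to 40.5 FPKM. Of the fibroblast markers, COL1A2 and PDGFRB were at most 0.0709 FPKM and COL1A1 at most 2.64 FPKM, while VIM was at 215 to 501 FPKM.

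FPKM values carry no absolute scale, so every change below is relative to the other genes. When libraries were scaled to the spike-ins, the median gene itself moved by -1.99 (log2) with THZ1 in WT, by -0.93 with the 2 µM combination in WT, by between 0.61 and 1.27 with the C312S treatments other than THZ1, and by -1.13 between C312S and WT under DMSO. The share of higher changes among the genes called was then 0.257% for WT THZ1, against 49.4% without that scaling, and 0.379% for C312S against WT under DMSO, against 52.1%.

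Transcript GC content also moved with some comparisons. Across 12154 genes with a GC value, the Spearman correlation between GC content and the log2 difference of C312S from WT was -0.56 under DMSO and -0.50 under THZ1, but 0.15 under THZ531 and 0.03 under YKL 500 nM. Genes are not independent replicates, so these are descriptions. The members cover much of the range, with MNAT1 at 38.4%, GTF2H1 at 40.3%, GTF2H5 at 40.6%, CDK7 at 41.2%, GTF2H3 at 41.5%, CCNH at 43.5%, ERCC3 at 49.3%, GTF2H4 at 56.7% and ERCC2 at 60.3% GC. The median gene had 49.9%.

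In untreated WT cells the CAK subunits and ERCC3 were the most abundant members. Under DMSO, WT cells had 40.1 ± 3.98 FPKM of CCNH, 38.2 ± 2.01 of CDK7, 35.8 of ERCC3, 28.8 ± 1.28 of MNAT1, 26.9 of GTF2H1, 26.5 of GTF2H3, 21.9 of GTF2H4, 13.4 ± 0.849 of ERCC2 and 2.84 of GTF2H5 (means, SD where given, n = 3). GTF2H5, the smallest core subunit, was the lowest member in 13 of the 14 groups. In C312S THZ1 it averaged 8.26 FPKM, and ERCC2, at 7.66 FPKM, was the lowest. Over the 14 group means, the highest level was 3.03 times the lowest for GTF2H3, 2.91 times for GTF2H5, 2.62 times for CCNH, 2.61 times for CDK7, 2.27 times for MNAT1, 2.17 times for GTF2H1 and 2.13 times for ERCC2. ERCC3 and GTF2H4 were the steadiest, at 1.38 and 1.37 times, against a median of 2.11 times over 8702 genes averaging at least 5 FPKM. Only 4.53% of those genes had a smaller range than ERCC3, and 3.94% a smaller range than GTF2H4.

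**Figure D1:**
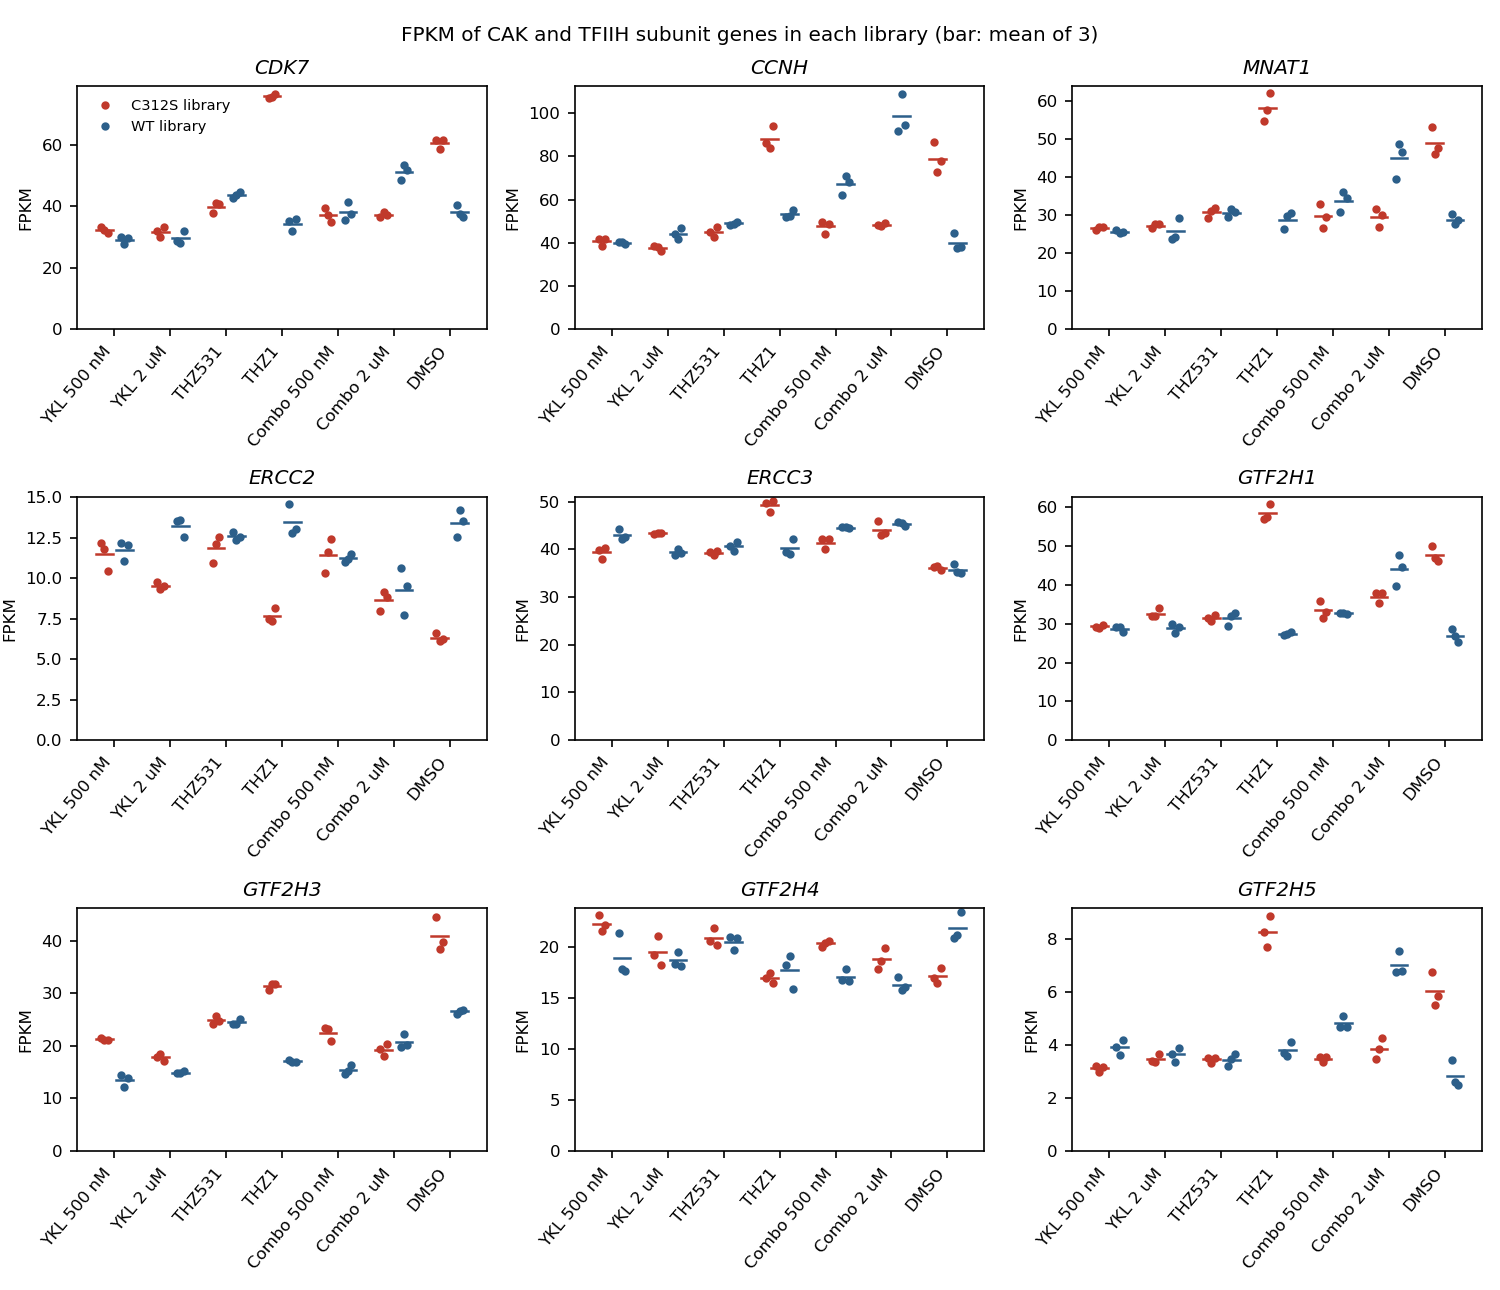
FPKM (y axis, from 0) of each member in each of the 42 libraries, by treatment (x axis), with C312S libraries in red left of WT libraries in blue; points are libraries and bars are means of 3. C312S THZ1 and C312S DMSO hold the 2 highest CDK7 levels (means of 75.8 and 60.5 FPKM), and WT cells with the 2 µM combination hold the highest CCNH level (98.5 FPKM).

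CDK7, the drug target, was ordered by group as follows. It was highest in C312S THZ1 (75.8 ± 0.741 FPKM) and C312S DMSO (60.5 ± 1.75), followed by WT with the 2 µM combination (51.2 ± 2.51) and WT THZ531 (43.7 ± 1.03), and the libraries of each of these 4 groups lay apart from those of the next group down. From C312S THZ531 (39.8 ± 1.75) down to WT YKL 500 nM (29.1 ± 1.18), the libraries of every pair of neighbours in the order overlapped (SD, n = 3 each). The lowest 4 groups were the YKL groups of both lines.

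In WT cells CDK7 and GTF2H3 were lower with both YKL doses, and the other CAK subunits were not called. Of the 9 members 6 changed with 500 nM (2 higher and 4 lower) and 5 with 2 µM (2 higher and 3 lower), where 63.0% and 65.3% of all tested genes did, so the members were called about as often as other genes. The median member change was -0.16 at 500 nM and -0.02 at 2 µM (log2), against 0.00 for all genes at both doses. A call is an adjusted p under 0.05 in limma with Benjamini-Hochberg adjustment over all tested genes, and log2 changes are on the log2(FPKM + 1) scale, where the changes of low genes such as GTF2H5 come out too small.

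CDK7 had 29.9, 27.7 and 29.7 FPKM in WT cells with YKL 500 nM and 28.8, 28.0 and 31.9 FPKM with YKL 2 µM, against 40.4, 37.5 and 36.6 FPKM in WT DMSO. Every YKL library was below every DMSO library, by -0.38 ± 0.06 (log2 change ± SE, adjusted p = 5.41e-07) at 500 nM and -0.36 ± 0.06 (adjusted p = 1.20e-06) at 2 µM. CCNH did not pass, at 0.00 (95% interval -0.13 to 0.14) and 0.14 (0.00 to 0.27), and MNAT1 stood at -0.16 at both doses (adjusted p = 0.0721 and 0.0688). GTF2H3, which encodes the p34 subunit, had 14.4, 12.2 and 13.9 FPKM with YKL 500 nM and 14.8, 14.8 and 15.1 FPKM with YKL 2 µM, against 26.1, 26.7 and 26.8 FPKM in WT DMSO. It had the largest change of any member with YKL in WT, at -0.93 ± 0.05 (adjusted p = 1.21e-15) and -0.79 ± 0.05 (adjusted p = 4.18e-14), and its groups did not overlap. GTF2H4 (p52) fell by 0.20 and 0.21. ERCC2 fell by 0.18 at 500 nM (adjusted p = 0.0429) and stood at -0.02 at 2 µM. In the other direction ERCC3 rose by 0.26 and 0.14 and GTF2H5 by 0.36 and 0.28.

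Some of these calls hung on the scaling, on the genes or libraries in the fit, or on 1 library. With libraries scaled to the summed FPKM, CDK7 was not called at 2 µM (-0.075, adjusted p = 0.186 in limma), ERCC2 and GTF2H4 stood at 0.044 and 0.027 at 500 nM, and GTF2H4 at 0.064 at 2 µM. CCNH was called higher under that scaling at both doses (0.24 and 0.43), and at 2 µM also under median-ratio scaling (0.18) and without WT DMSO replicate 1 (0.22) or WT YKL 2 µM replicate 2 (0.18). MNAT1 was called lower at 500 nM in a fit of only those groups (adjusted p = 0.0154) and at 2 µM without WT YKL 2 µM replicate 3 (-0.25). Under spike-in scaling MNAT1 was called lower at both doses (-0.80 and -0.27). ERCC2 at 500 nM lost its call without WT DMSO replicate 2 (-0.14) or 3 (-0.17), or without YKL 500 nM replicate 2 (-0.14) or 3 (-0.19). It was also not called with no filter on low values. The counts at 500 nM were 3 higher and 3 lower under median-ratio scaling, and 2 and 3 without the C312S DMSO and THZ1 libraries. GTF2H4 at 500 nM lost its call without WT DMSO replicate 3 or YKL 500 nM replicate 3 (-0.15 each).

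The YKL doses were told apart by few members. In WT cells 1 of 9 members, ERCC3, differed between 2 µM and 500 nM (-0.12 ± 0.03, adjusted p = 0.0148), against 6.18% of all genes. That call was lost when libraries were scaled to the summed FPKM (-0.067, adjusted p = 0.267), in a fit of only those groups (adjusted p = 0.0799), and without WT YKL 500 nM replicate 1 (-0.10) or WT YKL 2 µM replicate 1 (-0.11) or 3 (-0.12). Under spike-in scaling 9 of 9 members were called higher at 2 µM in WT, ERCC3 by 0.41 and CDK7 by 0.55. This went with a shift of most genes, as 11504 were then called, 99.9% of them higher, and the median gene stood at 0.47. In C312S cells ERCC3 was higher (0.14, adjusted p = 0.00840) and GTF2H3 lower (-0.24, adjusted p = 0.00795) at 2 µM, 2 of 9 members against 3.67% of genes, and ERCC3 was not called without C312S YKL 500 nM replicate 2 (0.11). CDK7 itself differed between doses by 0.02 (95% interval -0.09 to 0.13) in WT and by -0.02 (-0.13 to 0.09) in C312S.

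THZ531 and THZ1 gave other profiles in WT cells. With THZ531, 5 of 9 members rose and 0 fell, where 46.9% of genes were called, and the median member change was 0.18 against 0.01 for all genes. CDK7 had 42.7, 43.7 and 44.7 FPKM with THZ531, all above the WT DMSO libraries (0.19 ± 0.06, adjusted p = 0.00495), and CCNH, ERCC3, GTF2H1 and GTF2H5 rose by 0.18 to 0.29. The GTF2H5 call was lost without WT DMSO replicate 2 (0.17) or 3 (0.15) or WT THZ531 replicate 3 (0.18). GTF2H3 had -0.11 ± 0.05 (adjusted p = 0.0825). GC content moved with THZ531 in WT (Spearman correlation -0.46 across genes). With GC and length trends removed, a setting chosen after the data had been seen, 4 members were called higher and 1 lower. In that setting 5728 of all genes were called, 51.2% of them higher. With THZ1, 3 members rose and 3 fell, where 68.8% of genes were called, and the median member change was 0.00 against -0.01 for all genes. GTF2H3 had 17.3, 16.9 and 16.9 FPKM with THZ1, below every DMSO library (-0.61 ± 0.05, adjusted p = 1.46e-11). CDK7 fell by 0.15 (adjusted p = 0.0154), a call lost without WT DMSO replicate 1 (-0.11) or WT THZ1 replicate 2 (-0.10), and GTF2H4 by 0.29, while CCNH rose by 0.40 (adjusted p = 3.03e-06), GTF2H5 by 0.33 and ERCC3 by 0.16. Relative to the spike-ins, 9 of 9 members were lower with THZ1 in WT, between GTF2H5 at -1.36 and GTF2H3 at -2.84, where the median gene moved by -1.99.

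In WT cells both combinations raised CCNH, MNAT1, ERCC3, GTF2H1 and GTF2H5 and lowered ERCC2, GTF2H3 and GTF2H4. CDK7 rose with the 2 µM combination only and stood at -0.0061 with the 500 nM combination (adjusted p = 0.931 in limma). Of the 9 members 8 changed with the 500 nM combination (5 higher and 3 lower) and 9 with the 2 µM combination (6 higher and 3 lower), where 68.2% and 77.1% of genes were called. The median member change was 0.22 and 0.41, against 0.00 and 0.01 for all genes. CCNH, the cyclin that activates CDK7, had 92.0, 109 and 94.6 FPKM with the 2 µM combination and 62.3, 71.1 and 68.3 FPKM with the 500 nM combination, against 44.7, 37.4 and 38.2 FPKM in WT DMSO. No library of one group reached another group's, and the changes were 1.28 ± 0.07 (adjusted p = 2.61e-17) and 0.73 ± 0.07 (adjusted p = 3.09e-11). GTF2H5 had 6.77, 7.53 and 6.81 FPKM with the 2 µM combination, against 3.42, 2.60 and 2.51 FPKM in WT DMSO, a change of 1.07 ± 0.07 (adjusted p = 2.41e-14). GTF2H1 rose by 0.69, MNAT1 by 0.62, CDK7 by 0.41 and ERCC3 by 0.34, all with libraries apart from DMSO. ERCC2 had 10.7, 7.72 and 9.49 FPKM with the 2 µM combination, against 12.5, 14.2 and 13.5 FPKM in WT DMSO (-0.50 ± 0.08, adjusted p = 5.55e-07). GTF2H4 fell by 0.40 and GTF2H3 by 0.34. Scaled to the spike-ins, CCNH (0.17) and GTF2H5 (0.16) were the members still above 0 with the 2 µM combination, and the median gene was at -0.93.

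GC content moved with the 2 µM combination as well (Spearman correlation -0.46 across genes). With GC and length trends removed, a setting chosen after the data had been seen, CCNH stood at 0.99, GTF2H5 at 1.01, GTF2H1 at 0.40, MNAT1 at 0.27 and GTF2H3 at -0.69, all still called. CDK7 then stood at 0.08 and ERCC2 at -0.11, and neither was called. With YKL 500 nM alone, where that correlation was -0.03, the same setting left CDK7 at -0.35 and GTF2H3 at -0.91.

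**Figure D2:**
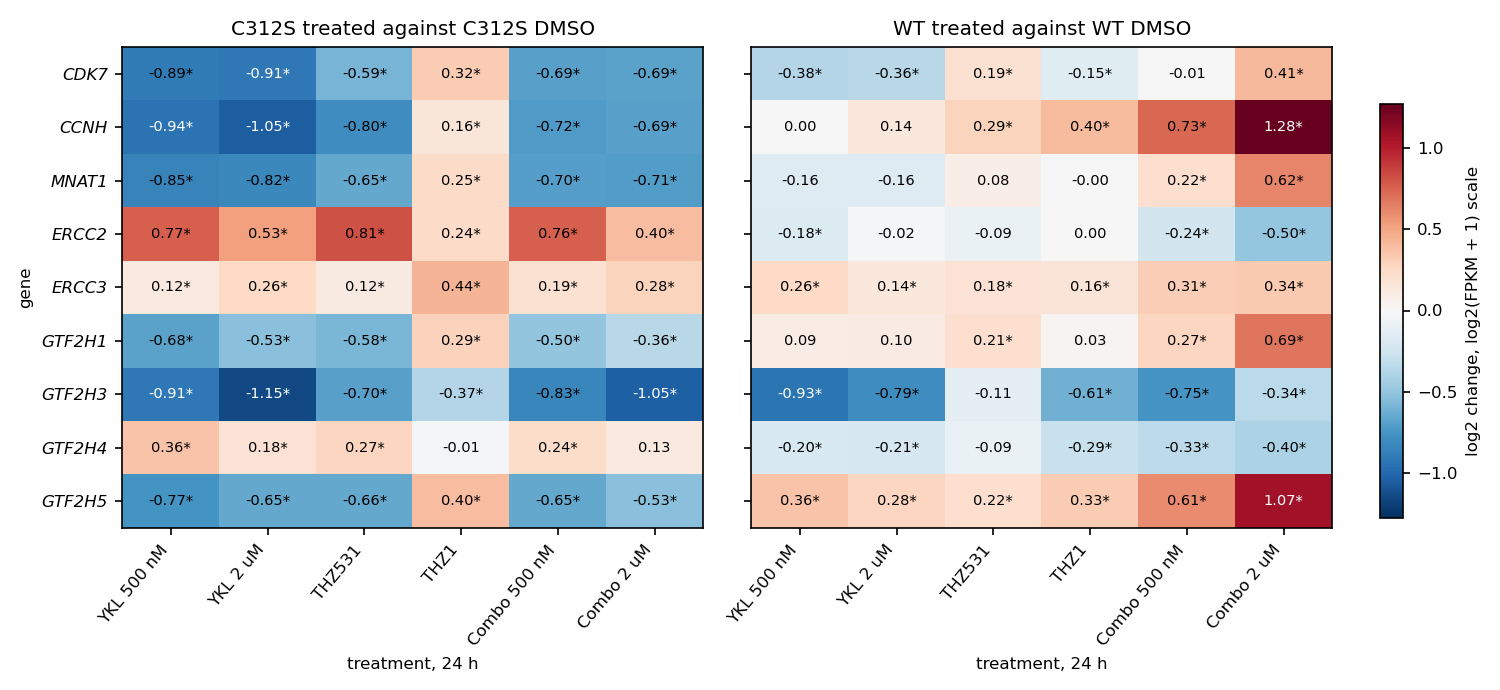
Log2 change of each member (rows) with each 24 h treatment (columns) against DMSO of the same line, C312S left and WT right, on the log2(FPKM + 1) scale; red is higher, blue is lower, and an asterisk marks an adjusted p under 0.05 in limma. CCNH with the 2 µM combination in WT (1.28) is the highest value and GTF2H3 with YKL 2 µM in C312S (-1.15) the lowest.

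YKL added to THZ531 was compared with THZ531 alone in each line, which uses none of the C312S DMSO or THZ1 libraries, and how many members were called in a line depended on the scaling. Against THZ531 alone, 0 of 9 members changed with 500 nM of YKL in C312S cells in limma (2 had an unadjusted p under 0.05), against 0.577% of genes, and 6 of 9 changed in WT cells, against 61.1% of genes. With 2 µM, 4 of 9 changed in C312S cells, against 34.8% of genes, and 9 of 9 changed in WT cells, against 73.5%. The median member change was -0.03 and -0.06 in C312S at 500 nM and 2 µM, and 0.06 and 0.22 in WT, with all genes between 0.00 and 0.02.

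CCNH had 48.4, 47.6 and 49.3 FPKM in C312S cells with the 2 µM combination, against 45.0, 42.9 and 47.1 FPKM with THZ531 alone (0.10 ± 0.07, adjusted p = 0.233). In WT cells it had 92.0, 109 and 94.6 FPKM with the combination, against 48.2, 48.8 and 49.8 FPKM with THZ531 (0.99 ± 0.07, adjusted p = 1.80e-14). Those WT groups did not come near each other, while the C312S groups were barely apart. The difference between the lines was tested as an interaction, and it was -0.89 ± 0.09 for CCNH (adjusted p = 3.15e-09). GTF2H5 differed likewise by -0.73 ± 0.10 (adjusted p = 7.03e-07), MNAT1 by -0.59 ± 0.11 (adjusted p = 4.84e-05), CDK7 by -0.32 ± 0.08 (adjusted p = 0.00104) and GTF2H1 by -0.25 ± 0.07 (adjusted p = 0.00581). These were 5 of 9 members, where the interaction was called for 53.1% of genes. CDK7 and GTF2H1 were not called with GC and length trends removed (-0.10 and -0.07).

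Not every member separated the lines. ERCC2 fell by 0.41 in C312S and by 0.41 in WT when 2 µM YKL was added, and the interaction was 0.00 ± 0.11. ERCC3 rose by 0.16 in both lines, with an interaction of 0.01 ± 0.04. GTF2H3 fell by 0.35 in C312S and by 0.23 in WT, with an interaction of -0.12 ± 0.08 (adjusted p = 0.184). At 500 nM the interaction was called for 3 of 9 members, against 41.5% of genes. GTF2H3 had 23.3, 23.2 and 20.9 FPKM in C312S with the 500 nM combination, against 24.1, 25.6 and 24.8 FPKM with THZ531, and 14.7, 15.1 and 16.3 FPKM in WT, against 24.1, 24.1 and 25.1 FPKM with THZ531. Its interaction was 0.50 ± 0.08 (adjusted p = 3.34e-06), and those of CCNH and GTF2H5 were -0.37 and -0.38. Scaled to the spike-ins, the median gene moved by -0.34 and -0.69 in C312S and by -0.40 and -0.98 in WT at 500 nM and 2 µM, and 9 of 9 members were then called lower in C312S at each dose and 7 of 9 in WT at each dose. The interactions at 2 µM were then -0.48 for CCNH and -0.38 for GTF2H5, still called, and -0.19 for MNAT1, 0.089 for CDK7 and 0.15 for GTF2H1, not called. At 500 nM that of GTF2H3 was 0.58, still called, and those of CCNH and GTF2H5 were -0.29 and -0.34, not called.

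**Figure D3:**
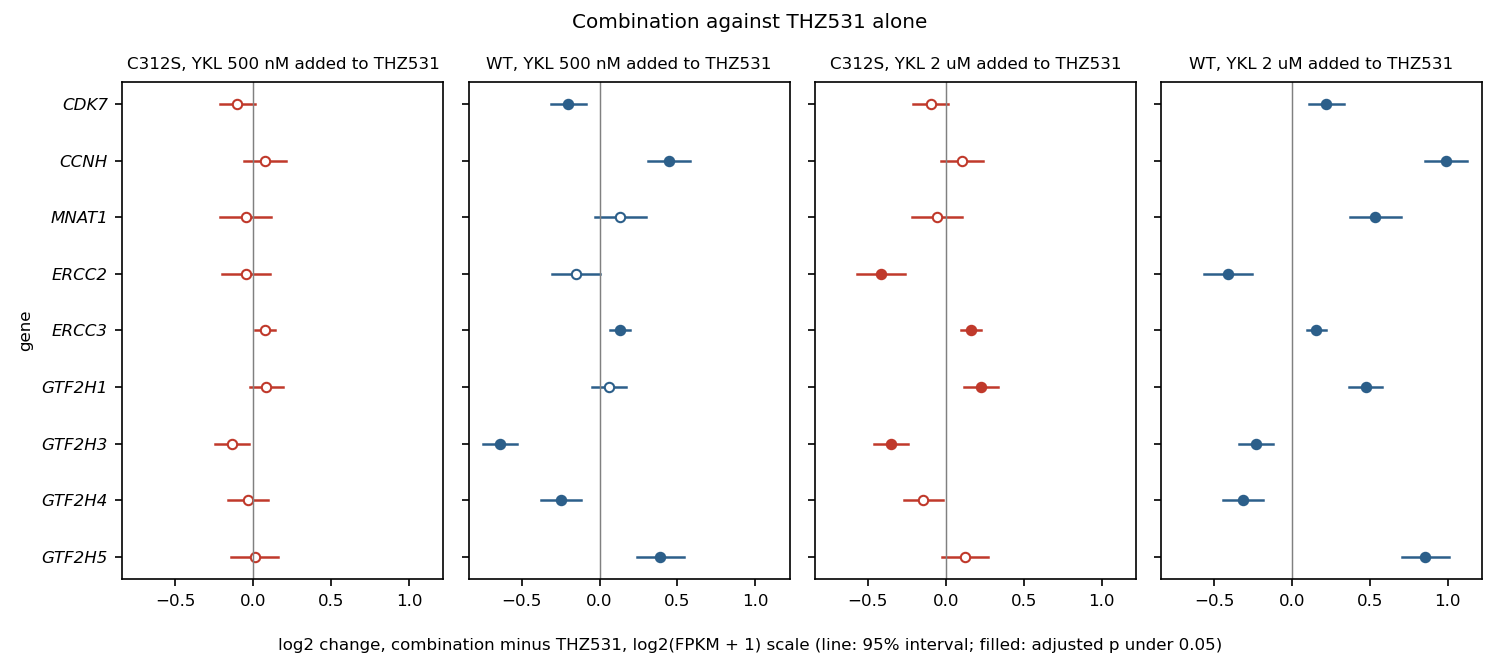
Log2 change of each member when YKL was added to THZ531 (combination minus THZ531 alone, log2(FPKM + 1) scale), in C312S (red, left of each pair) and WT (blue); points are limma estimates, lines are 95% intervals, and filled points have an adjusted p under 0.05. At 500 nM no C312S point is filled, and at 2 µM CCNH is at 0.10 in C312S and 0.99 in WT.

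The lines were also compared under each treatment. Under THZ531 0 of 9 members differed between C312S and WT in limma (1 had an unadjusted p under 0.05), where 30.4% of genes differed. The largest differences there were CDK7 at -0.13 (95% interval -0.24 to -0.02) and CCNH at -0.12 (-0.26 to 0.02), and the other 7 lay between -0.08 and 0.02. CDK7 was called lower there under median-ratio scaling (-0.14), under scaling to the summed FPKM (-0.23) and with GC and length trends removed (-0.13). The members differed in 5 of 9 cases under YKL 500 nM (63.6% of genes), 5 under YKL 2 µM (66.1%), 6 under the 500 nM combination (62.7%) and 6 under the 2 µM combination (69.1%). They differed in 8 of 9 cases under THZ1 (79.0% of genes) and in 8 of 9 under DMSO (79.2%).

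GTF2H3 was the member that most separated the lines under YKL 500 nM, with 21.5, 21.2 and 21.1 FPKM in C312S against 14.4, 12.2 and 13.9 FPKM in WT. The groups lay far apart, and the difference was 0.62 ± 0.05 (adjusted p = 1.29e-11). It was 0.52 under the 500 nM combination and 0.24 under YKL 2 µM, both called. Under the 2 µM combination GTF2H3 was at -0.10 (adjusted p = 0.0968). CDK7 was higher in C312S by 0.14 under YKL 500 nM (adjusted p = 0.0279), a call lost under median-ratio scaling and without WT YKL 500 nM replicate 2 (0.11 each) or C312S YKL 500 nM replicate 1 (0.12) or 2 (0.14), and at 0.10 under YKL 2 µM (adjusted p = 0.114). With the 2 µM combination CDK7 was lower in C312S by -0.45 ± 0.06, CCNH by -1.01 ± 0.07, MNAT1 by -0.59 and GTF2H5 by -0.73. CDK7 had 36.5, 38.0 and 37.1 FPKM in C312S there, against 48.5, 53.4 and 51.7 FPKM in WT.

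Under DMSO and THZ1 the C312S libraries had more of the low-GC members and less of ERCC2. With DMSO, CDK7 had 61.5, 58.5 and 61.5 FPKM in C312S against 40.4, 37.5 and 36.6 FPKM in WT (0.65 ± 0.06, adjusted p = 3.10e-12). CCNH differed by 0.96, GTF2H5 by 0.88, GTF2H1 by 0.80, MNAT1 by 0.74 and GTF2H3 by 0.60. ERCC2 had 6.61, 6.11 and 6.26 FPKM in C312S against 12.5, 14.2 and 13.5 FPKM in WT (-0.98 ± 0.08, adjusted p = 3.60e-13), and GTF2H4 differed by -0.33. ERCC3 did not pass, at 0.01 (95% interval -0.05 to 0.08). The median member difference was 0.65 under DMSO and 0.84 under THZ1, against 0.03 and 0.02 for all genes, and under THZ531 it was 0.00 against 0.01.

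These differences were ordered with transcript GC content. The 6 members at 38.4% to 43.5% GC were higher in C312S DMSO, the 2 at 56.7% and 60.3% were lower, and ERCC3, at 49.3%, was near 0, while the median gene stood at 0.50 in the lowest of 10 GC classes and at -0.55 in the highest. With GC and length trends removed, the DMSO differences were 0.82 for GTF2H5, 0.57 for CCNH, 0.37 for GTF2H1, 0.13 for CDK7 and -0.56 for ERCC2, still called, and 0.12 for MNAT1 and 0.07 for GTF2H3, not called. ERCC3 then stood at -0.088. Under THZ1 the same setting left CDK7 at 0.60, GTF2H1 at 0.62 and GTF2H5 at 0.86. Scaled to the spike-ins, 9 of 9 members were lower in C312S DMSO than in WT DMSO, between GTF2H5 at -0.28 and ERCC2 at -2.25, with the median gene at -1.13.

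**Figure D4:**
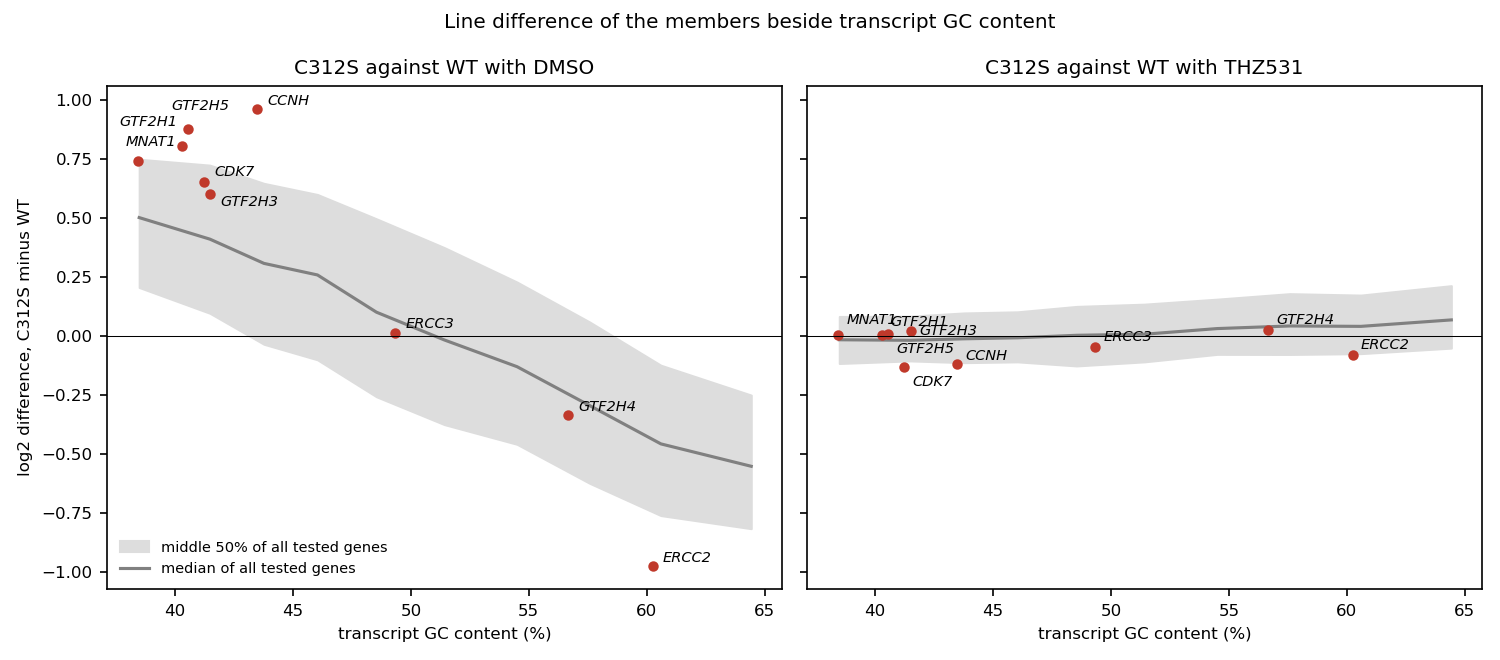
Log2 difference of C312S from WT (y axis) against transcript GC content in percent (x axis), under DMSO (left) and THZ531 (right); red points are the 9 members, the grey line is the median and the grey band the range between quartiles of all tested genes in 10 classes of GC content. Under DMSO the members run from CCNH at 0.96 to ERCC2 at -0.98 in the direction of the falling grey line, with CCNH, GTF2H5 and GTF2H1 above the grey band and ERCC2 below it, and under THZ531 all lie between -0.13 and 0.02.

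**Figure D5:**
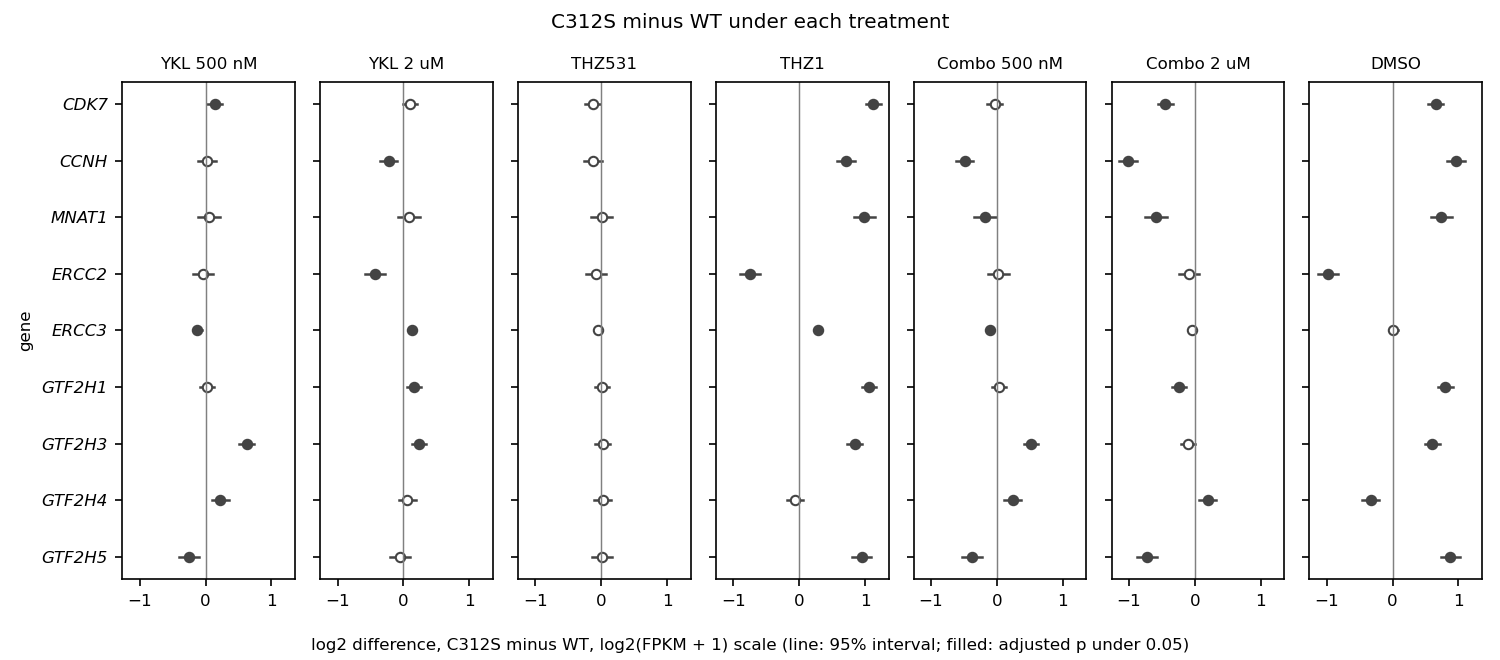
Log2 difference of C312S from WT (x axis, log2(FPKM + 1) scale) for each member under each treatment, 1 panel per treatment; points are limma estimates, lines are 95% intervals, and filled points have an adjusted p under 0.05. The panels for THZ1 and DMSO hold the largest positive differences (CDK7 at 1.13 and CCNH at 0.96), and no point is filled under THZ531.

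Each C312S treatment was also set against C312S DMSO, a comparison that rests on the libraries that stood apart. Of the 9 members 9 changed with YKL 500 nM, where 76.4% of genes did, 9 with YKL 2 µM (75.8%), 9 with THZ531 (74.1%), 8 with THZ1 (63.6%), 9 with the 500 nM combination (73.4%) and 8 with the 2 µM combination (68.7%). Leaving out C312S YKL 2 µM replicate 2 ended the GTF2H4 call at that dose (0.13). With every treatment except THZ1, CDK7, CCNH, MNAT1, GTF2H1, GTF2H3 and GTF2H5 were lower and ERCC2 and ERCC3 higher than in C312S DMSO. GTF2H4 was higher in 4 of these 5 and at 0.13 (adjusted p = 0.0664) with the 2 µM combination. These 5 comparisons share the 3 C312S DMSO libraries, so their likeness is not independent evidence. GC content moved with all 5 (Spearman correlations of 0.47 to 0.59 across genes). With GC and length trends removed, 3 members were called higher and 6 lower with YKL 500 nM, and 2 and 4 with YKL 2 µM. The counts were 3 and 5 with THZ531, 2 and 6 with the 500 nM combination, and 2 and 5 with the 2 µM combination. In that setting 7837 to 8776 of all genes were called in these 5 comparisons, 43.2% to 47.4% of them higher. The median member change ran from -0.77 with YKL 500 nM to -0.53 with the 2 µM combination, with all genes between -0.03 and -0.01.

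CDK7 had 33.1, 32.2 and 31.1 FPKM in C312S cells with YKL 500 nM, 32.0, 30.1 and 33.1 FPKM with YKL 2 µM, and 37.9, 41.1 and 40.6 FPKM with THZ531, against 61.5, 58.5 and 61.5 FPKM in C312S DMSO. All treated libraries were below all DMSO libraries, by -0.89, -0.91 and -0.59 (SE 0.06 each). Scaled to the spike-ins, where the median gene rose by 0.86 to 1.27 in these 3 comparisons, all 9 members' changes were positive, and those that turned sign are given in the closing section. With THZ1 the C312S cells differed the other way. CDK7 had 75.3, 75.5 and 76.6 FPKM, above every C312S DMSO library (0.32 ± 0.06, adjusted p = 7.76e-06), ERCC3 rose by 0.44, GTF2H5 by 0.40, GTF2H1 by 0.29, MNAT1 by 0.25, ERCC2 by 0.24 and CCNH by 0.16, and GTF2H3 fell by 0.37. GTF2H4 did not pass, at -0.01. The CCNH call was lost without C312S DMSO replicate 2 (0.10) or 3 (0.15) or C312S THZ1 replicate 3 (0.11). Under spike-in scaling 0 members were called higher with THZ1 and 1 lower, and CDK7 stood at 0.10. Of all genes 5052 were then called, 19.7% of them higher, and the median gene stood at -0.14. Under scaling to the summed FPKM 4 members were called higher and 1 lower, where 7507 genes were called, 40.3% of them higher.

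The effect of each treatment was set between the lines by interaction. It was called for 8 of 9 members with YKL 500 nM (73.7% of genes), 9 with YKL 2 µM (71.8%), 8 with THZ531 (68.0%), 6 with THZ1 (42.2%), 8 with the 500 nM combination (74.5%) and 8 with the 2 µM combination (78.7%). CCNH with the 2 µM combination had the largest, at -1.97 ± 0.09 (adjusted p = 5.32e-18), from -0.69 in C312S and 1.28 in WT. GTF2H3 with YKL 500 nM had the smallest, at 0.02 ± 0.08 (adjusted p = 0.834), from -0.91 in C312S and -0.93 in WT. With spike-in scaling, these interactions were called higher in C312S for 9, 7, 9, 9, 7 and 7 members in the same order of treatments. They were called lower for 0, and CCNH with the 2 µM combination stood at -0.040. Most genes moved likewise, with 11069 to 12317 called per treatment, 97.9% to 99.9% of them higher. The median gene stood at 1.09 to 1.85. With GC and length trends removed, CDK7 stood at 0.026 with YKL 500 nM and was not called. All of these contain the C312S DMSO libraries, and the part of that baseline was not tested.

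Levels of the members moved together in 2 ways over the 14 group means. CDK7 and MNAT1 had a Pearson correlation of 0.97 (0.99 over the 7 C312S groups and 0.89 over the 7 WT groups), CCNH and GTF2H5 0.94, and MNAT1 and GTF2H1 0.94. ERCC2 ran against GTF2H1 (-0.89) and CDK7 (-0.71), and GTF2H4 against GTF2H5 (-0.85). The groups share lines, a normalization and GC trends, so these values are descriptions. Among 8701 other genes averaging at least 5 FPKM, the genes whose group means were most like those of CDK7 were TGDS (0.99), MEAF6 (0.99), HIAT1 (0.99), IDH3A (0.99) and DPM1 (0.98). The genes most like the other members were ZUFSP for CCNH (0.98), RPF1 for MNAT1 (0.99), MED15 for ERCC2 (0.97), CDK5RAP1 for ERCC3 (0.94), HCCS for GTF2H1 (0.99), VPS36 for GTF2H3 (0.97), PPIL2 for GTF2H4 (0.97) and GTF2B for GTF2H5 (0.99), GTF2B being the general factor TFIIB.

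The remaining core subunit, p44, is encoded by GTF2H2 and near-identical copies, so its reads can be split between them and its value is uncertain. GTF2H2 had 1.48 to 7.32 FPKM in the group means, and its copies GTF2H2B and GTF2H2C stayed below 1 FPKM. It was lower in WT with YKL 500 nM (-0.69), YKL 2 µM (-1.04) and the 500 nM combination (-0.87), and in C312S with all 6 treatments (-0.77 to -1.39).

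Genes around CAK and TFIIH were read from lists with the same earlier knowledge as the members. Of all tested genes in WT, YKL had 63.0% called at 500 nM and 65.3% at 2 µM, THZ531 had 46.9%, THZ1 had 68.8%, and the combinations had 68.2% at 500 nM and 77.1% at 2 µM, and 48.7% to 51.2% of the genes called were higher. Against C312S DMSO, 63.6% to 76.4% were called, and 46.7% to 53.2% of those were higher. Those comparisons rest on the C312S DMSO libraries that stood apart, and all but that of THZ1 had GC correlations of 0.47 to 0.59. Of the 8 other general transcription factors, 5 rose and 2 fell with YKL 500 nM in WT, 4 rose and 1 fell with YKL 2 µM, 3 rose and 0 fell with THZ531, 6 rose and 1 fell with THZ1, 5 rose and 0 fell with the 500 nM combination, and 7 rose and 1 fell with the 2 µM combination. Against C312S DMSO, 1 rose and 7 fell with YKL 500 nM, YKL 2 µM, THZ531 and the 500 nM combination alike, 1 rose and 5 fell with the 2 µM combination, and 6 rose and 0 fell with THZ1. GTF2A1, a TFIIA subunit, rose by 0.54 and 0.63 with the YKL doses, and GTF2B rose by 0.73 and 1.15 with the combinations. Of 12 CDKs and cyclins linked to CAK, 5 rose and 4 fell with YKL 500 nM, 6 rose and 5 fell with YKL 2 µM, 3 rose and 5 fell with THZ531, 2 rose and 7 fell with THZ1, 5 rose and 7 fell with the 500 nM combination, and 4 rose and 5 fell with the 2 µM combination in WT. Against C312S DMSO, 2 to 4 rose and 6 to 7 fell with each treatment. CCND1, the D-type cyclin, had 11.7 FPKM with YKL 500 nM against 4.09 FPKM in WT DMSO (1.32 ± 0.06, adjusted p = 7.43e-18). CCNA2, the S and G2 phase cyclin, fell by 0.66 and 0.99 with the YKL doses, CCNB1, the mitotic cyclin, by 0.59 and 0.87, and CDK1, its kinase, by 0.70 at 2 µM.

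Among 15 nucleotide excision repair partners, 6 rose and 2 fell with YKL 500 nM in WT, 4 rose and 4 fell with YKL 2 µM, 2 rose and 5 fell with THZ531, 7 rose and 4 fell with THZ1, 6 rose and 2 fell with the 500 nM combination, and 8 rose and 5 fell with the 2 µM combination. Against C312S DMSO, 4 to 6 rose and 8 to 9 fell with each treatment. The shares of all genes called, and the limits of the C312S DMSO comparisons, are those given for the other lists. ERCC1, a subunit of the repair endonuclease, fell by 0.57 with THZ531. With THZ1 the damage sensor gene DDB2 fell by 0.63, while DDB1, its partner, rose by 0.55 and XPA, a damage verification factor, by 0.54. Of the 3 tested genes that load the iron-sulfur cluster of XPD, 1 rose and 2 fell in WT with each YKL dose and the 2 µM combination. With THZ531 0 rose and 2 fell, with THZ1 1 rose and 1 fell, and with the 500 nM combination 0 rose and 1 fell. Against C312S DMSO, 0 to 1 rose and 2 fell with each treatment. CIAO1, a targeting factor for iron-sulfur proteins, fell in WT by 0.75 with THZ1 and by 0.52 with the 500 nM combination. The repair, CDK and general factor lists had medians of 0.11, -0.03 and 0.22 with YKL 500 nM in WT, against 0.00 for all genes.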

How the data were processed

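The authors deposited FPKM values per gene for 42 libraries of polyadenylated RNA in 14 groups of 3, made with Cuffnorm, Cufflinks 2.2.1, HISAT2 2.0.4 and the build hg19 per the submitters' processing notes, which give no order or normalization setting. Columns were matched to samples through the sample descriptions, and 0 columns were left unmatched. FPKM hold no read counts, so the depth of a library is unknown, count models do not apply, and intervals reflect library-to-library spread alone. Of 26320 rows, 92 are ERCC spike-ins.

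Under R 4.3.3, limma 3.58.1 was fitted to log2(FPKM + 1) as 14 group means over all 42 libraries, with an expression trend in the prior variance and p-values adjusted by Benjamini-Hochberg over 12816 genes in each of 33 comparisons; calls have an adjusted p under 0.05, and intervals are 95%. Spike-in levels were compared with exact permutation tests. The lowest correlation between libraries of a group was 0.97, and 0 pairs were identical. The fit was tested on simulated data. With changes placed between WT YKL 500 nM and WT DMSO (12816 genes) it recovered 54% of changes of 0.25, 96% of 0.5 and of 1, and 100% of 2 (log2), with 2.26% of calls false. The simulation gave 177 calls where the real comparison gave 8074, so these rates need not hold for the real data.

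The members, lists and tests were chosen with earlier results of these data known. List genes named had a called WT change of at least 0.5 and at least 5 FPKM, up to 3 per direction and comparison over all lists, and CCNT1 and GTF2E2 among them are not described further. GC content and length came from GENCODE v29 transcripts matched by symbol (94.8% of tested genes), promoters from RefSeq, GRCh38.p14, which differs from the build of the files. Python 3.11.15 and matplotlib 3.10.9 drew the plots.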

Additional observations from a re-analysis of the deposited data

Results flagged for a closer look

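The effect of a treatment differed between C312S and WT, by the interaction test in limma, for the members named here, and each value is the log2 effect in C312S minus that in WT. YKL 500 nM had an effect in C312S that was lower for CDK7 at -0.51, CCNH at -0.94, MNAT1 at -0.69, ERCC3 at -0.14, GTF2H1 at -0.78 and GTF2H5 at -1.13, and higher for ERCC2 at 0.94 and GTF2H4 at 0.56. YKL 2 µM had an effect in C312S that was lower for CDK7 at -0.55, CCNH at -1.19, MNAT1 at -0.65, GTF2H1 at -0.64, GTF2H3 at -0.36 and GTF2H5 at -0.93, and higher for ERCC2 at 0.55, ERCC3 at 0.12 and GTF2H4 at 0.39. THZ531 had an effect in C312S that was lower for CDK7 at -0.78, CCNH at -1.08, MNAT1 at -0.74, GTF2H1 at -0.80, GTF2H3 at -0.58 and GTF2H5 at -0.87, and higher for ERCC2 at 0.90 and GTF2H4 at 0.36. THZ1 had an effect in C312S that was lower for CCNH at -0.25, and higher for CDK7 at 0.47, ERCC3 at 0.27, GTF2H1 at 0.26, GTF2H3 at 0.24 and GTF2H4 at 0.27. The 500 nM combination had an effect in C312S that was lower for CDK7 at -0.69, CCNH at -1.45, MNAT1 at -0.92, ERCC3 at -0.12, GTF2H1 at -0.77 and GTF2H5 at -1.26, and higher for ERCC2 at 1.00 and GTF2H4 at 0.57. The 2 µM combination had an effect in C312S that was lower for CDK7 at -1.10, CCNH at -1.97, MNAT1 at -1.33, GTF2H1 at -1.05, GTF2H3 at -0.70 and GTF2H5 at -1.60, and higher for ERCC2 at 0.89 and GTF2H4 at 0.53. The change on adding YKL 500 nM to THZ531 was in C312S lower for CCNH at -0.37 and GTF2H5 at -0.38, and higher for GTF2H3 at 0.50. The change on adding YKL 2 µM to THZ531 was in C312S lower for CDK7 at -0.32, CCNH at -0.89, MNAT1 at -0.59, GTF2H1 at -0.25 and GTF2H5 at -0.73. Under spike-in scaling the effects against DMSO were instead called higher in C312S for 9 members with YKL 500 nM, THZ531 and THZ1. They were called higher for 7 members with YKL 2 µM and both combinations, and lower for 0 with any treatment. Most genes moved likewise, with 11069 to 12317 called per treatment, 97.9% to 99.9% of them higher. The changes on adding YKL to THZ531 were then called higher in C312S for 1 member and lower for 0 at 500 nM, and higher for 2 and lower for 2 at 2 µM. Of all genes, 2458 were then called at 500 nM (59.8% higher) and 5828 at 2 µM (91.2% higher). With GC and length trends removed, the YKL 500 nM difference of CDK7 was 0.026 (adjusted p = 0.732 in limma) and was not called. The differences against DMSO all contain the C312S DMSO libraries, which stood apart in summed FPKM, and the part of that baseline was not tested. The changes on adding YKL to THZ531 do not use those libraries, and 19 of 36 tests within the lines were called with or without the C312S DMSO and THZ1 libraries in the fit.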

How the results depend on the processing

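The alternatives planned were a pseudocount of 0.1, no filter on low values, 3 scalings, fits of only the groups compared, a replicate block, an untrended prior variance and leaving out each library. Removal of GC and length trends and a fit without the C312S DMSO and THZ1 libraries were chosen after seeing the data. Directions were compared where a change was called in the main fit or in the alternative. None of these changes turned with the pseudocount, the missing filter, median-ratio scaling or the fits of fewer groups. Nor did any turn with the untrended variance, the replicate block or any library left out. Uncalled changes near 0 are not covered by this count and could change sign. Same-numbered libraries did not deviate together (mean correlation of deviations 0.015, against -0.0075 for other numbers, with 15.8% of 273 pairs over 0.1), so the numbers are not taken to pair the samples. The replicate block gave 39, 52, 38, 19, 3 and 55 calls in the 6 families of comparisons, as without it. Leaving out a library gave 36 to 41 calls of 54 for WT treatments, 51 to 53 of 54 for C312S treatments, 37 to 39 of 63 between lines, 19 to 20 of 36 for YKL added to THZ531, 2 to 4 of 18 between YKL doses and 53 to 56 of 72 interactions. Between YKL doses 3 calls became 9 under scaling to the spike-ins and 1 where the fit held only those groups, which leaves fewer residual degrees of freedom. For YKL added to THZ531 the 19 calls became 32 under scaling to the spike-ins. Depth is unknown from FPKM, and GTF2H5, the lowest member in 13 of 14 groups, is the most damped by the pseudocount.

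Scaling to the spike-ins multiplies every FPKM of a library by 1 factor before 1 is added and logs are taken. Relative to the median gene under that scaling, 201 of 206 called changes kept their sign and 5 turned, all of ERCC3 or CCNH. Not taken relative to the median gene, these log2 values had the other sign. In WT, YKL 500 nM against DMSO had CCNH at -0.64, ERCC3 at -0.38, GTF2H1 at -0.54 and GTF2H5 at -0.14. In WT, THZ1 against DMSO had CCNH at -1.95, ERCC2 at -2.16, ERCC3 at -2.17, GTF2H1 at -2.26 and GTF2H5 at -1.36. In WT, the 500 nM combination against DMSO had MNAT1 at -0.16, ERCC3 at -0.069 and GTF2H1 at -0.10. In WT, the 2 µM combination against DMSO had CDK7 at -0.68, MNAT1 at -0.47, ERCC3 at -0.76 and GTF2H1 at -0.40. In C312S, YKL 500 nM against DMSO had CDK7 at 0.25, CCNH at 0.20, MNAT1 at 0.28, GTF2H1 at 0.45, GTF2H3 at 0.21 and GTF2H5 at 0.17. In C312S, YKL 2 µM against DMSO had CDK7 at 0.34, CCNH at 0.20, MNAT1 at 0.42, GTF2H1 at 0.71, GTF2H3 at 0.075 and GTF2H5 at 0.39. In C312S, THZ531 against DMSO had CDK7 at 0.99, CCNH at 0.80, MNAT1 at 0.92, GTF2H1 at 0.99, GTF2H3 at 0.87 and GTF2H5 at 0.67. In C312S, THZ1 against DMSO had CCNH at -0.060. In C312S, the 500 nM combination against DMSO had CDK7 at 0.52, CCNH at 0.50, MNAT1 at 0.50, GTF2H1 at 0.71, GTF2H3 at 0.36 and GTF2H5 at 0.36. In C312S, the 2 µM combination against DMSO had CDK7 at 0.13, CCNH at 0.13, MNAT1 at 0.11, GTF2H1 at 0.46 and GTF2H5 at 0.15. Under DMSO, C312S against WT had CDK7 at -0.77, CCNH at -0.46, MNAT1 at -0.67, ERCC3 at -1.39, GTF2H1 at -0.61, GTF2H3 at -0.80 and GTF2H5 at -0.28. Under YKL 500 nM, C312S against WT had ERCC2 at 0.31, ERCC3 at 0.24 and GTF2H5 at 0.034. Under THZ1, C312S against WT had GTF2H4 at 0.60. Under the 500 nM combination, C312S against WT had ERCC3 at 0.072. Under the 2 µM combination, C312S against WT had CDK7 at 0.052, ERCC2 at 0.37, ERCC3 at 0.46, GTF2H1 at 0.26 and GTF2H3 at 0.38. YKL 500 nM added to THZ531 in WT had CCNH at -0.0034, MNAT1 at -0.31, ERCC3 at -0.32 and GTF2H1 at -0.39. YKL 2 µM added to THZ531 in WT had CDK7 at -0.95, CCNH at -0.19, MNAT1 at -0.63, ERCC3 at -1.01, GTF2H1 at -0.69 and GTF2H5 at -0.14. YKL 500 nM added to THZ531 in C312S had CCNH at -0.30, ERCC3 at -0.30, GTF2H1 at -0.29 and GTF2H5 at -0.31. YKL 2 µM added to THZ531 in C312S had CCNH at -0.66, ERCC3 at -0.60, GTF2H1 at -0.54 and GTF2H5 at -0.52. YKL 2 µM against 500 nM in WT had MNAT1 at 0.53, ERCC3 at 0.41, GTF2H4 at 0.51 and GTF2H5 at 0.36. YKL 500 nM, C312S effect minus WT effect, had CDK7 at 1.27, CCNH at 0.84, MNAT1 at 1.08, ERCC3 at 1.63, GTF2H1 at 0.99 and GTF2H5 at 0.31. YKL 2 µM, C312S effect minus WT effect, had CDK7 at 0.80, CCNH at 0.17, MNAT1 at 0.70, GTF2H1 at 0.71, GTF2H3 at 0.98 and GTF2H5 at 0.17. THZ531, C312S effect minus WT effect, had CDK7 at 0.73, CCNH at 0.44, MNAT1 at 0.77, ERCC3 at 1.44, GTF2H1 at 0.71, GTF2H3 at 0.92 and GTF2H5 at 0.37. THZ1, C312S effect minus WT effect, had CCNH at 1.89. The 500 nM combination, C312S effect minus WT effect, had CDK7 at 0.91, CCNH at 0.14, MNAT1 at 0.66, ERCC3 at 1.46, GTF2H1 at 0.81, GTF2H3 at 1.50 and GTF2H5 at 0.037. The 2 µM combination, C312S effect minus WT effect, had CDK7 at 0.82, MNAT1 at 0.58, ERCC3 at 1.85, GTF2H1 at 0.86 and GTF2H3 at 1.19. Adding YKL 2 µM to THZ531, C312S minus WT, had CDK7 at 0.089 and GTF2H1 at 0.15.

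Scaling to the summed FPKM kept the sign of 205 of 206 called changes relative to the median gene. Not taken relative to it, these values turned, by the same construction. In WT, YKL 500 nM against DMSO had ERCC2 at 0.044 and GTF2H4 at 0.027. In WT, YKL 2 µM against DMSO had ERCC2 at 0.25 and GTF2H4 at 0.064. In WT, THZ1 against DMSO had ERCC3 at -0.0014 and GTF2H1 at -0.13. In WT, the 500 nM combination against DMSO had CDK7 at 0.16. In C312S, the 2 µM combination against DMSO had GTF2H1 at 0.058. Under DMSO, C312S against WT had ERCC3 at -0.48. Under YKL 500 nM, C312S against WT had CDK7 at -0.090, CCNH at -0.21, MNAT1 at -0.17 and GTF2H1 at -0.20. Under YKL 2 µM, C312S against WT had CDK7 at -0.19, MNAT1 at -0.20, ERCC3 at -0.16, GTF2H1 at -0.12, GTF2H3 at -0.044 and GTF2H4 at -0.23. Under THZ1, C312S against WT had ERCC3 at -0.14. Under the 500 nM combination, C312S against WT had GTF2H1 at -0.13. YKL 500 nM, C312S effect minus WT effect, had ERCC3 at 0.12. THZ531, C312S effect minus WT effect, had ERCC3 at 0.34. The 500 nM combination, C312S effect minus WT effect, had ERCC3 at 0.22 and GTF2H3 at 0.26. The 2 µM combination, C312S effect minus WT effect, had ERCC3 at 0.41.

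With GC and length trends removed these values turned, and the cause was not tested. Under DMSO, C312S against WT had ERCC3 at -0.088. Under THZ1, C312S against WT had GTF2H4 at 0.15. Under the 2 µM combination, C312S against WT had GTF2H3 at 0.13. YKL 2 µM added to THZ531 in WT had CDK7 at -0.026. YKL 500 nM, C312S effect minus WT effect, had CDK7 at 0.026. YKL 2 µM, C312S effect minus WT effect, had CDK7 at 0.018, MNAT1 at 0.063 and GTF2H3 at 0.20. The 500 nM combination, C312S effect minus WT effect, had ERCC3 at 0.023 and GTF2H3 at 0.49. The 2 µM combination, C312S effect minus WT effect, had ERCC3 at 0.10 and GTF2H3 at 0.054.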
